A study of Mus musculus with 11 samples.

Results

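H3K4me1 peaks that also carry H3K9me3 were examined in mouse E14 embryonic stem cells with CUT&Tag-BS, an assay in which fragments cut out next to a histone mark are bisulfite-sequenced, so that their DNA methylation is read directly. A doubly marked peak was defined as a unified H3K4me1 peak on chromosomes 1 to 19 that shared at least 1 bp with a unified H3K9me3 peak, whether or not it also overlapped an H3K27me3 peak. There were 1453 such peaks among the 36588 H3K4me1 peaks on these chromosomes and the 37256 of the whole series. They met 1334 of the 20576 H3K9me3 peaks on the same chromosomes. The members were chosen by peak calls of both marks, so the overlap itself and the density of calls in them are descriptions. The methylation of the calls was not used in the choice.

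The E14 cells, a line of 129/Ola background, were cultured in medium with serum and leukemia inhibitory factor and received no treatment that the labels record. The H3K4me1 and H3K9me3 bisulfite samples came from 250000 cells each, as run 1 with 35-bp reads and run 2 with 75-bp reads, and the runs of a mark were treated as repeat sequencing of 1 library. The H3K27me3 bisulfite libraries were made with 4000, 20000, 100000 or 250000 cells. A control without bisulfite was made for each mark from 250000 cells. With 1 library per mark, no test across replicate cultures was possible, and the tests below compare libraries. As a check of the cell type, the stem cell genes Pou5f1, Nanog, Sox2, Esrrb and Klf4 all had H3K4me1 peaks within 1000 bp, from 1 at Sox2 to 12 at Esrrb, and none of these was doubly marked. The check is weak, since 8909 of 20665 protein-coding genes had an H3K4me1 peak without H3K9me3 that near. Only 340 (1.65%) had a doubly marked one, so its absence at these genes carries no contrast.

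H3K4me1 is the mark of enhancers and of the flanks of active promoters, where DNA is commonly less methylated than in the rest of the genome. H3K9me3 is the mark of heterochromatin and is laid down over retrotransposons, zinc finger gene clusters and the silent allele of imprinted control regions, usually together with DNA methylation. At an imprinted control region the alleles differ, so that in a population of cells both marks can be called at a single position while lying on different chromosomes. CUT&Tag-BS reads each mark from its own fragments. In these data, marks on different alleles, marks in different cells and marks on a single chromosome cannot be told apart.

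Promoter sequence was available for windows of 300 bp, from 250 bases before to 50 bases after the annotated start (RefSeq, GRCm38.p6, chromosomes 1 to 17 and 19 among the autosomes). Of 31396 windows, 79 lay within a doubly marked peak. In 18 of these, both run 2 libraries had at least 20 CpG calls. The methylation level is the share of methylated calls among all calls. It was higher in the H3K9me3 library in 14 of the 18 windows and by at least 20 percentage points in 7, while in 10 windows both libraries lay under 20%. With a minimum of 10 calls, a difference of at least 20 points toward H3K9me3 was found in 9 of 29 windows in doubly marked peaks. It was found in 5 of 238 windows in other H3K4me1 peaks and in 51 of 1518 over all windows. Over those 1518 the median level was 0% in both run 2 libraries, so the windows low in both carry no contrast. The sequences of 6 of the 18 windows are printed to show where the compared CpGs lie. They were chosen after their values were seen.

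The first group holds the windows with the largest differences, those of Gm34081 (chr12:109526220-109526519, minus strand), Kcnq1ot1 (chr7:143296498-143296797, minus strand) and Rapgef3os2 (chr15:97761328-97761627, plus strand), all noncoding RNA genes. Capitals mark the CpGs that were called in both run 2 libraries, and sequences read from 5′ to 3′ on the strand of the gene.
Gm34081: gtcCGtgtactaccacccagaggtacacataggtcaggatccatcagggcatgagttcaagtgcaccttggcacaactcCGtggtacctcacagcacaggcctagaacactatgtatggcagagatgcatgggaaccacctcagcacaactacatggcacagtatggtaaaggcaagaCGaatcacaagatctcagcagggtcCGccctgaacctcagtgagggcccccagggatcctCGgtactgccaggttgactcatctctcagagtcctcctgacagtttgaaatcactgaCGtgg
Kcnq1ot1: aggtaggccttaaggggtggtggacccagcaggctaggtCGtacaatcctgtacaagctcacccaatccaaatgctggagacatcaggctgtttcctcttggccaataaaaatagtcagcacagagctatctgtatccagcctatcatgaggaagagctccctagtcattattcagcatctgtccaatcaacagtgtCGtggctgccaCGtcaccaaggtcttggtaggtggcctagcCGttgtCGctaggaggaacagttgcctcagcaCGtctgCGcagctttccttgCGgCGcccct
Rapgef3os2: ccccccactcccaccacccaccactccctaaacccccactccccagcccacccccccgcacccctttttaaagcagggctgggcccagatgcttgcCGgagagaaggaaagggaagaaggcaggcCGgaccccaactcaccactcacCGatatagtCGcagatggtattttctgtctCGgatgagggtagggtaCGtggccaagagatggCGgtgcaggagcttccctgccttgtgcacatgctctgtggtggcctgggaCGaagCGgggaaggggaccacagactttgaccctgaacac
In the Gm34081 window the H3K4me1 library had 6.06% methylation in run 2 (33 calls, 95% Wilson interval 1.68 to 19.6) and the H3K9me3 library 97.6% (41 calls, 87.4 to 99.6). Every capital CpG was more methylated in the H3K9me3 library, 6 of 6. In the Kcnq1ot1 window none of 22 H3K4me1 calls was methylated, which allows a level of up to 13.6%, against 80% of 35 H3K9me3 calls (64.1 to 90.0). Again 9 of 9 CpGs were more methylated in the H3K9me3 library. The Rapgef3os2 window had 27.1% of 48 calls in the H3K4me1 library (16.6 to 41.0) and 77.1% of 48 in the H3K9me3 library (63.5 to 86.7), with 8 of 9 CpGs more methylated in the latter. Wilson intervals and limits at 0 cover counting error only.

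The second group shows windows that were low in both libraries or mostly methylated in both. Those of Zfp808 (chr13:62129640-62129939, plus strand), a zinc finger gene, and Asb8 (chr15:98145653-98145952, minus strand), which encodes an ankyrin repeat protein with a SOCS box, were low in both libraries. That of Gm46429 (chr13:66631565-66631864, plus strand), a noncoding RNA gene, was mostly methylated in both.
Zfp808: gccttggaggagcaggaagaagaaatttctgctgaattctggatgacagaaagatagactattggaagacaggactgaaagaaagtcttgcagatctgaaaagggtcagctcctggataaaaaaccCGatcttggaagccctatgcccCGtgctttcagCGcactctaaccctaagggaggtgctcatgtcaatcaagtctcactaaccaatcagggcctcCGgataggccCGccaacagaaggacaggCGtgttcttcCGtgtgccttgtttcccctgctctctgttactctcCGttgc
Asb8: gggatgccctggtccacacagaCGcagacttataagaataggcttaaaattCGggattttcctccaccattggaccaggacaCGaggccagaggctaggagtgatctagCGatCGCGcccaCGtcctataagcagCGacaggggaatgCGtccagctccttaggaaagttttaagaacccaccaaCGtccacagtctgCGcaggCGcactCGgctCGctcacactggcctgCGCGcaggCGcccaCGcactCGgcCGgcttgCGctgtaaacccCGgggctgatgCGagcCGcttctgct
Gm46429: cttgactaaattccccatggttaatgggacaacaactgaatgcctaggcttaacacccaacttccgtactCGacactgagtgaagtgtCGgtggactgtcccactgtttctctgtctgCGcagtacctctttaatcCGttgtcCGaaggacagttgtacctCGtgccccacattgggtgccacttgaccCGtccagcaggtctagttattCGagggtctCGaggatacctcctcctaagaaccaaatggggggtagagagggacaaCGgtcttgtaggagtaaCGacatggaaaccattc
The Zfp808 window had 1.92% methylation in the H3K4me1 library (52 calls) and 1.52% in the H3K9me3 library (66 calls) of run 2. The Asb8 window, with 24 CpGs called in both, had 3.16% of 95 calls and 3.45% of 116 calls. The Gm46429 window had 71.2% of 66 calls (59.4 to 80.7) and 92.7% of 96 calls (85.7 to 96.4), and 8 of its 11 shared CpGs were higher in the H3K9me3 library. It was high in both but is 1 of the 7 windows with a difference of at least 20 points, and its intervals did not overlap. Of the 18 windows with enough calls, 10 were low in both libraries and 7 were at least 20 points higher in the H3K9me3 library. The other windows of the 79 had too few calls to be placed.

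The windows were searched on both strands for TGCCGC, the hexamer that ZFP57, the zinc finger protein that protects imprints, binds when methylated. It was present in 9 of the 79 windows in doubly marked peaks (11.4%), in 14.4% of the 3558 windows in other H3K4me1 peaks and in 11.6% of all windows of the table.

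Across all doubly marked peaks the libraries read unequal methylation. The H3K4me1 library had a pooled level of 24.4% in run 1 (127049 calls) and 24.2% in run 2 (254491 calls). The H3K9me3 library had 39.3% in run 1 (25354 calls) and 39.7% in run 2 (68437 calls). Over single chromosomes, run 2 ranged from 17.2 to 29.5% for H3K4me1 and from 32.7 to 60.8% for H3K9me3, so the ranges did not overlap. The gap between the marks was larger than that between runs of a mark.

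In the 35135 H3K4me1 peaks without an H3K9me3 peak, the H3K4me1 library was close to its level in doubly marked peaks, at 25.8 and 25.9%. The sparse H3K9me3 calls there were 32.6 and 33.0% methylated. The depth differed sharply, since run 2 of H3K9me3 had 1.84 calls per CpG in doubly marked peaks and 0.130 in the others.

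The H3K27me3 libraries were not used to choose the regions. In doubly marked peaks they read 27.2% (224 calls from 4000 cells), 20.6% (2795 calls from 20000), 24.6% (11897 calls from 100000) and 26.2% (19144 calls from 250000). In H3K4me1 peaks without H3K9me3 they read from 9.24 to 9.40%, and 17.7% of those peaks overlapped an H3K27me3 peak against 30 of the 1453 doubly marked ones. Among peaks without an H3K27me3 peak, the level in the 250000-cell library was 29.7% in doubly marked and 28.6% in other H3K4me1 peaks. The classes thus lay apart over all peaks and close together without those under H3K27me3.

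Region by region, 750 doubly marked peaks had 10 calls or more in every one of the 4 runs, a filter that favours regions with many H3K9me3 reads. Their median level was 22.1% in the H3K4me1 library (quartiles 13.4 and 34.0) and 34.3% in the H3K9me3 library (20.4 and 50.9), each as the mean of its runs. The median difference, H3K9me3 minus H3K4me1, was 10.8 percentage points (quartiles 1.26 and 21.7). In the same regions the runs of a mark differed by a median of 2.83 points for H3K4me1 and 6.72 points for H3K9me3. The 1071 other H3K4me1 peaks that passed the same filter had a median difference of 5.48 points, and all 1821 together 7.90. The doubly marked peaks had the larger median on 16 of 19 chromosomes.

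A difference of at least 20 points toward H3K9me3 was found in 208 of the 750 doubly marked peaks (27.7%), where the share over all 1821 tested H3K4me1 peaks was 23.9%. Among the 1071 other H3K4me1 peaks alone it was 21.2%. The opposite difference was found in 3 (0.4%), beside 1.10% of all tested peaks, but in 7 of 750 to 16 of 1027 when a single run of a mark was left out, so this small count carries no contrast. Both H3K9me3 runs lay above both H3K4me1 runs in 465 of the 750 (62%), beside 52.9% over all, and below both in 81 (10.8%), beside 17.5%. In the other 1071 alone these shares were 46.5 and 22.1%. The doubly marked peaks thus had H3K9me3 above H3K4me1 more often, and below it less often, than other H3K4me1 peaks deep enough to be read, a difference between libraries that was not tested across cultures.

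Fisher's exact test, two-sided, on the calls of run 2 with Benjamini-Hochberg adjustment over 6059 H3K4me1 peaks found H3K9me3 higher in 249 of 1181 tested doubly marked peaks (21.1%, adjusted p under 0.05), beside 10.3% of all peaks tested and 7.65% of those without H3K9me3. H3K4me1 was higher in 5, beside 0.330% of all. On run 1 in place of run 2, the exact test found H3K9me3 higher in 109 of 752 doubly marked peaks. The test finds a given difference more easily where there are more calls, which the doubly marked peaks have. It compares a pair of libraries and not replicate cultures.

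Depth and position were held closer by comparing the marks at the same CpGs, those called in both run 2 libraries, each weighted by the smaller of its call numbers. Over 1166 doubly marked peaks the median difference was 9.34 points (quartiles 1.10 and 18.7), and H3K9me3 was higher in 915 of them (78.5%), beside 62.0% of all 5820 peaks so tested. In the 4654 others the median difference was 2.61 points. At single CpGs with at least 5 calls in both libraries, 1155 of 2745 in doubly marked peaks (42.1%) were under 20% in both. A further 78 (2.84%) were under 20% in the H3K4me1 library and over 80% in the H3K9me3 library, and none of the 2745 was the reverse. In H3K4me1 peaks without H3K9me3, 316 of 572 such CpGs (55.2%) were under 20% in both and 8 (1.40%) were low in H3K4me1 and high in H3K9me3. The libraries thus differed at shared CpGs, but complete separation at a CpG was uncommon.

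**Figure D1:**
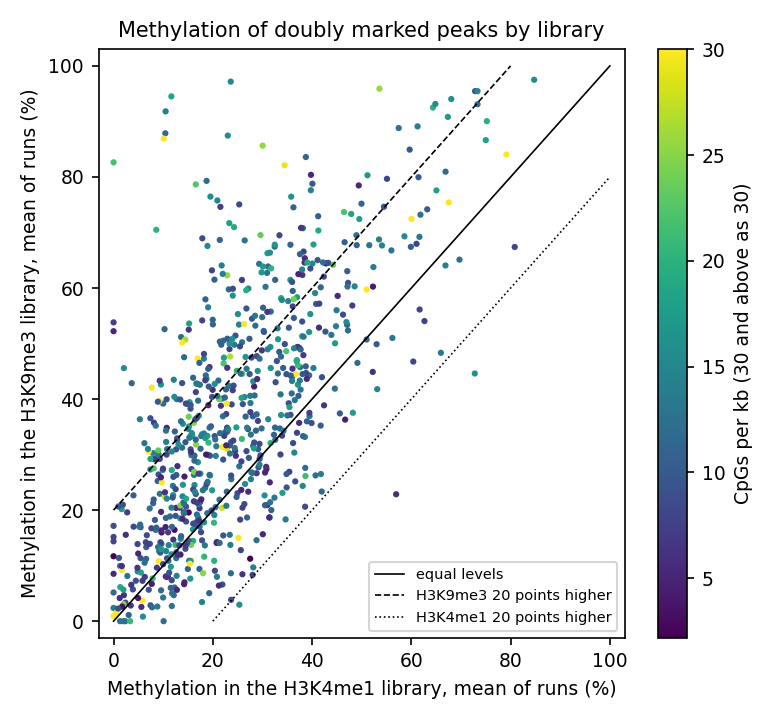
Each point is 1 of the 750 doubly marked peaks with at least 10 calls in every run, with the methylation level (percent, mean of runs) in the H3K4me1 library on the x axis and in the H3K9me3 library on the y axis, coloured by CpGs per kb. Most points lie above the solid line of equal levels, 208 on or above the dashed line and 3 on or below the dotted line.

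The peaks fell into a few classes of methylation. Both libraries lay between 20 and 80% in 358 of the 750 (47.7%), beside 45.6% of the 1071 other H3K4me1 peaks. Both were under 20% in 155 (20.7%), beside 32.0% of the others. H3K4me1 was under 20% with H3K9me3 between 20 and 80% in 179 (23.9%), beside 13.1%. In 5 peaks H3K4me1 was under 20% and H3K9me3 over 80%, which 1 of the others showed, and 1 had both over 80%. The split of low H3K4me1 and high H3K9me3 was therefore a rare class in these 750 regions.

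The largest pattern within the regions was spatial. Where H3K9me3 peaks extended beyond the H3K4me1 peaks they met, their flank outside any H3K4me1 peak was highly methylated in the H3K9me3 library, while the part shared with the H3K4me1 peak was not. In run 2 the H3K9me3 library read 38.9% in the shared part and 82.1% in the flank, close to the 86.6% of H3K9me3 peaks that met no H3K4me1 peak. Run 1 gave 38.8% and 82.1%. The flank was above the shared part on 19 of 19 chromosomes in each run.

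The H3K4me1 library showed the same step. It read 21.1% in the shared part and 52.9% in the flank in run 2, and 20.9% and 54.1% in run 1, with the flank higher on 19 of 19 chromosomes in each run. It had 0.547 calls per CpG in the flank, so these are the few H3K4me1 reads that fell outside its peaks. The H3K27me3 library from 250000 cells read 26.4% in the shared part and 38.2% in the flank when all calls were pooled. The flank was higher on 17 of 19 chromosomes, and the median step over chromosomes was 45.6 points, well above the step in pooled calls. The 100000-cell library gave 17 of 19 chromosomes with a median step of 42.3 points.

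The step was also present within single regions. Of 666 doubly marked peaks with at least 10 H3K9me3 calls of run 2 in both parts, 605 (90.8%) had the higher level in the flank, by a median of 42.3 points (quartiles 21.0 and 61.1). For run 1 it was 307 of 339, by a median of 46.9 points. In the H3K4me1 library of run 2 the flank was higher in 385 of 455 regions (84.6%), by a median of 33.3 points. In the 250000-cell H3K27me3 library it was higher in 26 of the 30 regions with enough calls, by a median of 39.0 points. In these libraries of all 3 marks, the stretch under H3K4me1 was mostly the less methylated part of the H3K9me3 peak.

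The part of the doubly marked peaks outside the H3K9me3 peak was more methylated than the shared part in the H3K4me1 library, by less than the flank was. In run 2 it had 25.9% methylation in the H3K4me1 library and 43.7% in the H3K9me3 library, above the shared part in both. Within single regions the outside part exceeded the shared part by a median of 13.2 points in the H3K4me1 library (352 of 504 regions), or 14.3 in run 1 (278 of 399), and by 8.33 points in the H3K9me3 library (172 of 275). In run 1 of H3K9me3 the median was -1.54 points, with 40 of 87 regions higher, so the direction for that library was not the same in both runs.

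**Figure D2:**
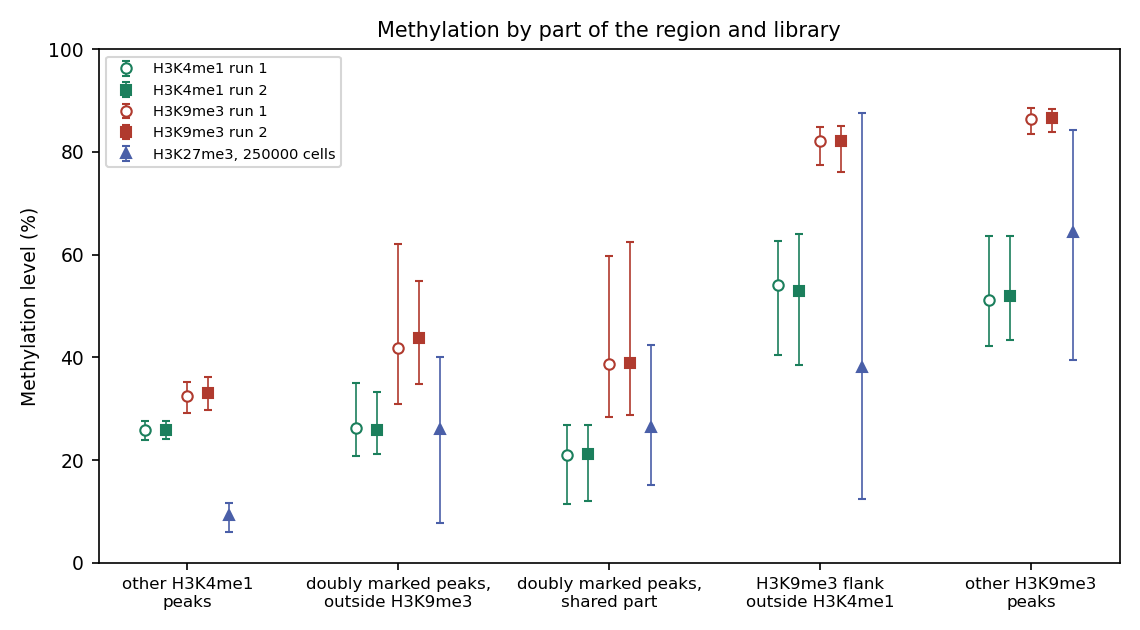
Methylation level (y axis, percent) in 5 kinds of sequence (x axis): H3K4me1 peaks without H3K9me3, the outside and shared parts of doubly marked peaks, the H3K9me3 flank, and H3K9me3 peaks without H3K4me1. Symbols are pooled levels of each library and bars run from the lowest to the highest chromosome, and the H3K9me3 library steps from 38.9% in the shared part to 82.1% in the flank.

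The step was traced around the 1835 H3K4me1 peak edges that lay inside an H3K9me3 peak, in bins of 250 bp. In the H3K9me3 library of run 2 the level was 84.2% between 1250 and 1000 bp outside the edge, 70.1% between 500 and 250 bp, 64.4% in the last 250 bp before the edge, 45.4% in the first 250 bp inside and 32.9% in the next. The H3K4me1 library went from 62.6% through 52.7, 46.5 and 32.1% to 22.7% over the same bins, and reached 16.9% between 750 and 1000 bp inside. Further inside, the H3K9me3 level was higher again, at 35.5% between 750 and 1000 bp and 39.7% between 1250 and 1500 bp. The H3K9me3 library read 59.6% (705 calls) between 1500 and 1750 bp and 41.9% (320 calls) between 1750 and 2000 bp. The H3K4me1 library read 21.7, 18.7 and 14.1% in the bins from 1250 to 2000 bp. Only wider peaks reach so far, and CpGs fell from 4156 in the first 250 bp inside to 946 between 750 and 1000 bp. The bins from 1250 to 2000 bp held 296, 182 and 93 CpGs. The libraries thus lay further apart there, but in a different and smaller set of regions. The H3K27me3 library from 250000 cells went from 79.0% to 21.5% between 1250 bp outside and 500 bp inside. Further out it was lower again, at 36.1% (443 calls) between 2000 and 1750 bp. From 1250 bp outside to 500 bp inside, the libraries of all 3 marks thus went from higher to lower levels.

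At the 1102 edges of H3K9me3 peaks that lay inside a doubly marked peak the step had the same direction but was smaller. The H3K9me3 library of run 2 read 46.4% in the 250 bp outside the H3K9me3 edge and 38.0% in the 250 bp inside, and the H3K4me1 library 27.3% and 21.2%. Both libraries had their lowest values from 250 to 750 bp inside, at 29.4 and 29.2% for H3K9me3 and 16.3 and 16.4% for H3K4me1. Edges of H3K4me1 peaks that met no H3K9me3 peak showed a step of smaller size, from 53.1% to 38.2% over the same pair of bins in the H3K9me3 library and from 44.2% to 33.4% in the H3K4me1 library. The levels thus changed more at edges of H3K4me1 than at edges of H3K9me3.

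**Figure D3:**
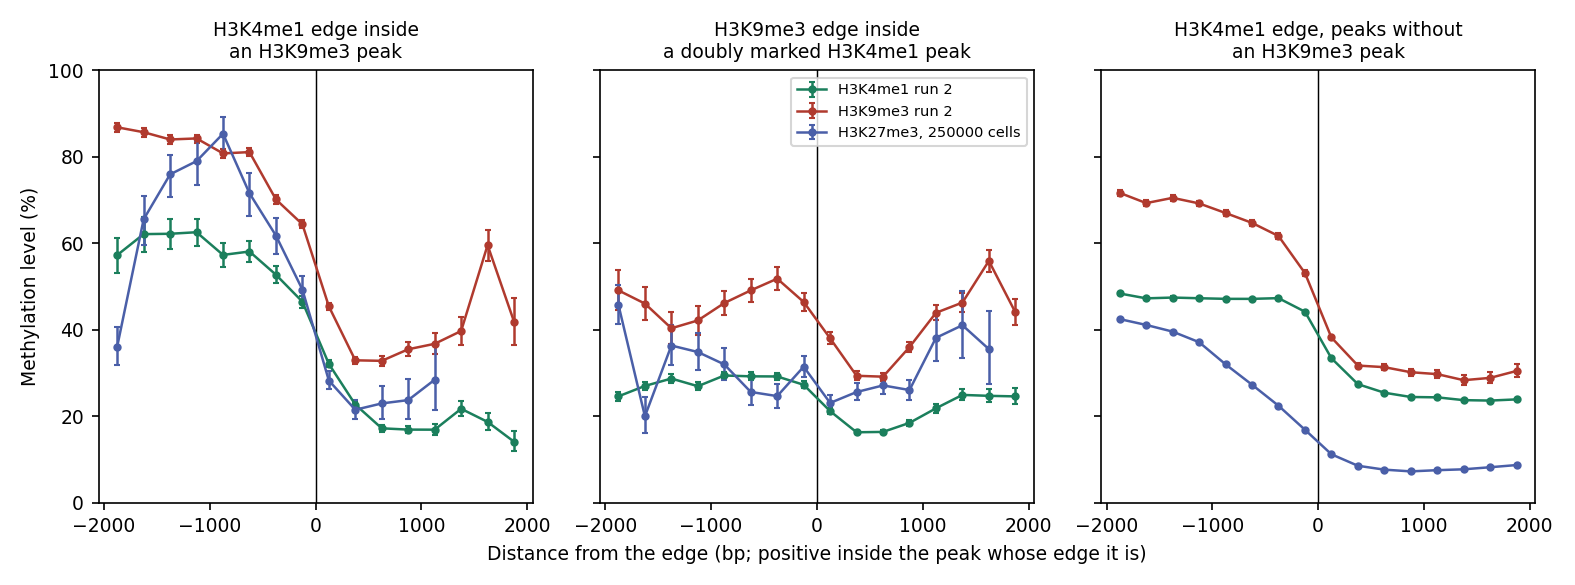
Methylation level (y axis, percent) by distance from a peak edge (x axis, bp, positive inside the peak whose edge it is) for 3 libraries, with 95% Wilson intervals and bins of at least 100 calls. At H3K4me1 edges inside H3K9me3 peaks (left) the H3K9me3 level falls from 64.4% to 45.4% across the edge, while at H3K9me3 edges inside doubly marked peaks (middle) it goes from 46.4% to 38.0%, and the right panel shows H3K4me1 peaks without H3K9me3.

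The geometry of the overlap took 3 forms. In 662 regions the peaks were staggered, in 584 the H3K4me1 peak lay inside an H3K9me3 peak and in 207 the H3K9me3 peak lay inside the H3K4me1 peak. The overlap had a median of 907 bp and covered a median of 88.2% of the H3K4me1 peak, and 1438 of the 1453 met a single H3K9me3 peak. The median difference between libraries was 10.1 points in staggered regions (375 with enough calls), 11.6 where H3K4me1 lay inside (231) and 11.4 where H3K9me3 lay inside (144). The form of the overlap made little difference to the methylation of the pair. The 14 peaks with at most 100 bp of overlap had H3K9me3 levels of 35.9 and 47.1% in runs 1 and 2, and the 333 H3K4me1 peaks just outside the rule, within 1000 bp of an H3K9me3 peak, had 35.5 and 36.5%.

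Doubly marked peaks had a median width of 1341 bp (quartiles 733 and 2537, range 501 to 38380), against 1087 bp for other H3K4me1 peaks. They were poorer in CpGs, with a median of 8.98 per kb against 14.04. The difference between libraries was widest in the 149 peaks of at least 5000 bp, where 139 had enough calls and the median was 17.9 points, beside 10.2 in other H3K4me1 peaks of that width. It was 11.7 points in peaks under 1000 bp, 7.58 from 1000 to under 2000 bp and 8.57 from 2000 to under 5000 bp. At the same CpGs the 4 width classes lay closer together, at 9.69, 8.43, 8.76 and 12.2 points in order of width. Fisher's exact test called 91 of the 149 widest (61.1%), which also hold the most calls, and 150 of 1254 other H3K4me1 peaks of that width (11.96%).

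By CpG density, the median difference was 8.11 points under 10 CpGs per kb (278 peaks), 12.3 from 10 to 20 (408) and 15.2 from 20 to 40 (56). Other H3K4me1 peaks had 8.89, 9.51 and 0.994 points, so by this measure the sets lay furthest apart between 20 and 40 CpGs per kb. Above 40 CpGs per kb, 8 doubly marked peaks had a median of 5.14 points with quartiles of -2.79 and 29.5, and 162 other peaks had -0.569. At the same CpGs the doubly marked peaks had 7.87, 10.6, 10.6 and 21.0 points in order of density, the last from 8 peaks, and the others 4.47, 4.87, 0.947 and 0. By that measure the doubly marked peaks had the larger median in every density class. Between 20 and 40 CpGs per kb, other H3K4me1 peaks had 18.2% in the H3K4me1 library and 17.5% in the H3K9me3 library as medians, and doubly marked ones 18.7 and 39.4%.

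In the genome, 817 doubly marked peaks (56.2%) lay between genes, 451 (31.0%) inside a gene and 185 (12.7%) within 1000 bp of a gene end. Of other H3K4me1 peaks, 22.3% lay between genes, 52.5% inside and 25.2% at a gene end. The median difference was 13.6 points at gene ends (142 peaks), 12.5 inside genes (223) and 8.97 between genes (385). In other H3K4me1 peaks it was 0, 9.03 and 8.67 points. Doubly marked peaks at gene ends had 39.1% methylation in the H3K9me3 library against 15.5% in others there, while between genes the values were 32.1 and 31.0%. At the same CpGs the doubly marked peaks had 11.3 points at gene ends, 11.8 inside genes and 7.74 between genes, and the others 0, 4.37 and 4.99. By both measures the sets lay furthest apart at gene ends and closest between genes. At gene ends the sets also differed in CpG density, with medians of 12.99 per kb in doubly marked peaks and 21.96 in others. Place and density cannot be told apart in this comparison.

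**Figure D4:**
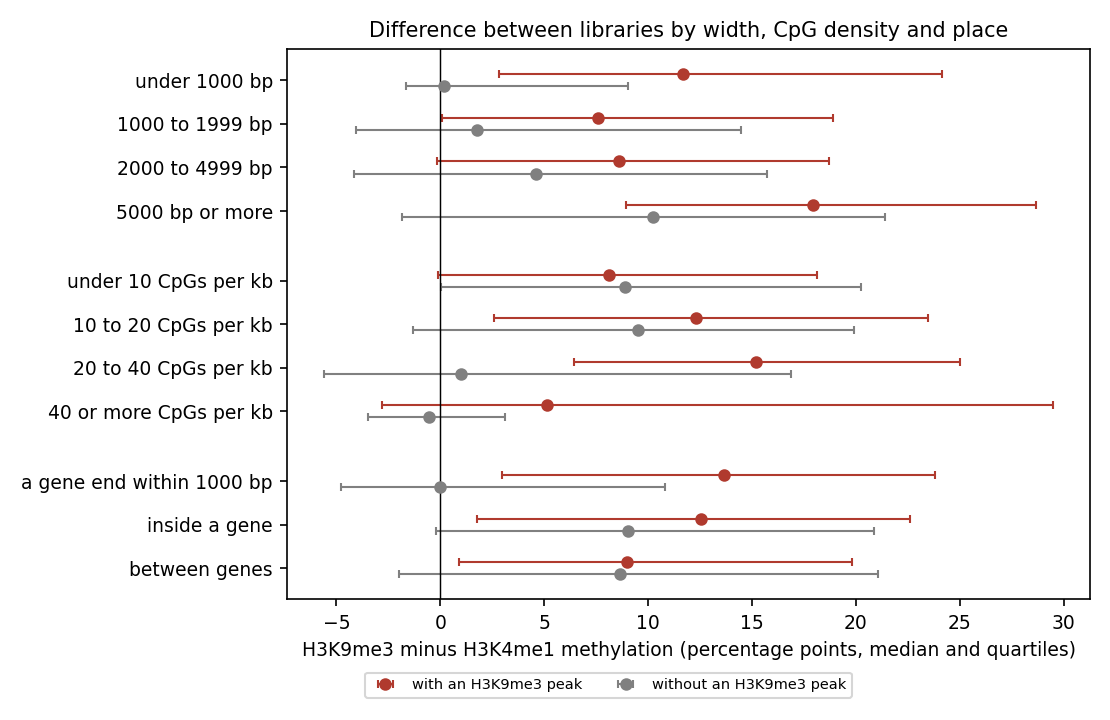
Median difference in methylation, H3K9me3 minus H3K4me1 (x axis, percentage points, bars are quartiles over peaks), by width, CpG density and place (y axis) in doubly marked peaks (red) and other H3K4me1 peaks (grey). The colours separate most at gene ends, at 13.6 against 0 points, and between 20 and 40 CpGs per kb, at 15.2 against 0.994 points.

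The 30 doubly marked peaks that also overlapped an H3K27me3 peak were CpG-rich for this class, with a median of 19.98 CpGs per kb. Pooled calls gave 23.5 and 23.7% on H3K4me1 fragments, 58.5 and 54.5% on H3K9me3 fragments and 22.7% in the 250000-cell H3K27me3 library. The H3K27me3 library thus read near the H3K4me1 library in these regions. The median difference between H3K9me3 and H3K4me1 over the 22 with enough calls was 8.47 points with quartiles of -4.23 and 31.3, so single regions varied widely.

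Among gene groups, counted by whether a doubly marked peak lay within 1000 bp of the gene, 340 of 20665 protein-coding genes had one (1.65%). Of 39 imprinted genes found, 6 had one, namely Commd1, Gnas, Kcnq1, Kcnq1ot1, Trappc9 and Zrsr1, and 17 had another H3K4me1 peak. None of 18 germline genes had one. None of the 15 pluripotency genes had one, although all 15 had another H3K4me1 peak, as did 8909 of the 20665 protein-coding genes. At a share of 1.65% over all genes, these absences in short lists carry no contrast. Of 388 genes named Zfp, most of which encode zinc finger proteins, 16 had one (4.12%). Neighbouring genes can share a peak, so these counts are not independent.

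Of the 17 doubly marked peaks near Zfp genes, 14 could be tested and Fisher's exact test called 6 with H3K9me3 higher, where 21.1% of all doubly marked peaks tested were called, and 0 with H3K4me1 higher. Over the 10 with enough calls the difference ranged from -8.17 to 76.8 points, with a median of 21.5. The peak at Zfp553 had 13.7 and 13.98% on H3K4me1 fragments and 54.1 and 46.3% on H3K9me3 fragments. That at Zfp532 had 30.2 and 31.8% against 63.5 and 69.1%. At Zfp462, which encodes a zinc finger protein of pluripotent and neural cells, the wider of a pair of peaks had 10 and 11.0% against 17.2 and 16.7%. Zfp808 was low in both marks and Zfp809, the gene of a retrovirus silencer in stem cells, had 57.1 and 70.4% against 87.5 and 95.8%, with 8 H3K9me3 calls in run 1.

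The 10 regions with the largest difference at shared CpGs are described next, with values in the order run 1 and run 2 and the adjusted p of Fisher's exact test on run 2. The largest lay in a single H3K9me3 peak at chr12:109522872-109541557 that spans Gm34081, between Dlk1 and Meg3, where the germline imprint of that domain is known to lie. It held 2 doubly marked peaks. The first, at chr12:109529574-109534160, had 9.72 and 11.3% methylation on H3K4me1 fragments and 90.2 and 93.4% on H3K9me3 fragments (exact test, adjusted p = 1.79e-115). The second, at chr12:109522983-109528265, which holds the promoter window printed for Gm34081, had 11.7 and 11.6% against 94.7 and 94.4% (exact test, adjusted p = 7.91e-309). In both, the groups of runs lay far apart, and the 250000-cell H3K27me3 library sided with H3K9me3, at 100% of 10 calls and 92.2% of 51 calls. Neither overlapped an H3K27me3 peak, so these are calls of that library outside its peaks. Around them, the flank read 24.2% in the H3K4me1 library and 92.4% in the H3K9me3 library.

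The Kcnq1ot1 promoter, the start of the noncoding RNA that silences its imprinted domain in cis from the unmethylated allele, lay in a peak of 647 bp at chr7:143296443-143297089. None of 12 and 28 H3K4me1 calls was methylated, which allows levels of up to 25% and 10.7%. The H3K9me3 runs had 81.0% of 21 calls and 84.3% of 51 calls (exact test, adjusted p = 2.69e-12). Here H3K27me3 sided with H3K4me1, with none of 55 calls methylated in the 250000-cell library, which allows up to 5.45%. So in both imprinted regions the H3K4me1 and H3K9me3 libraries separated widely, while the H3K27me3 library lay on a different side in each. Only the Kcnq1ot1 peak overlapped an H3K27me3 peak, so the regions are not alike for that mark.

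At the Gnas locus, which makes several imprinted transcripts, 2 doubly marked peaks met a single H3K9me3 peak at chr2:174289261-174302672. The peak at chr2:174292125-174293367 had 21.2 and 26% on H3K4me1 fragments (33 and 50 calls) and 100 and 94.3% on H3K9me3 fragments (43 and 106 calls), with an adjusted p of the exact test of 2.81e-16. The wider peak at chr2:174283241-174290526 had 9.60 and 9.85% against 17.1 and 32.8% (exact test, adjusted p = 1.67e-08), and 3.40% in the 250000-cell H3K27me3 library. Its shared part had 45.3% in the H3K4me1 library and 86.1% in the H3K9me3 library, and its outside part 7.77 and 10.47%. In that peak the libraries separated in the stretch under H3K9me3 and were both low beyond it.

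The other imprinted genes had smaller differences or few calls. The peak at Zrsr1, a paternally expressed retrogene within Commd1, at chr11:22976152-22977498 had 72 and 73.7% on H3K4me1 fragments and 100 and 90.9% on H3K9me3 fragments, from 13 and 33 calls (adjusted p = 0.297 by Fisher's exact test). It was therefore methylated in both libraries. At Trappc9, whose intron holds the imprinted Peg13, a peak at chr15:73021415-73022618 had 13.9 and 13.0% against 66.7% of 3 calls and 29.4% of 17 calls (exact test, adjusted p = 0.438).

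Beyond imprinted genes of the list, Zfp30 had a doubly marked peak of 501 bp inside the gene, at chr7:29793027-29793527, with 25 CpGs. It had 16.7 and 3.57% on H3K4me1 fragments (24 and 28 calls), 92.9 and 81.0% on H3K9me3 fragments (28 and 126 calls) and 8.47% of 59 calls in the 250000-cell H3K27me3 library (exact test, adjusted p = 9.66e-13). The libraries were ordered as at Kcnq1ot1. A peak between genes at chr15:34869271-34870261 had 8.33 and 8.87% against 63.5 and 77.5% (exact test, adjusted p = 1.18e-30), and a peak between genes at chr16:18013740-18016024 had 19.1 and 26.9% against 89.6 and 85.3% (exact test, adjusted p = 9.25e-22). In the chr16 peak the H3K4me1 library read 43.2% in the shared part and 2.67% outside it, while H3K9me3 read 85.5 and 84.8%.

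Tspan32, a tetraspanin gene in the same imprinted cluster as Kcnq1ot1, had a peak of 11972 bp at chr7:143005367-143017338. It had 24.7 and 25.9% on H3K4me1 fragments and 67.6 and 82.5% on H3K9me3 fragments, and the H3K27me3 library from 250000 cells lay between, at 52.4% of 82 calls. Camta1, which encodes a calmodulin-binding transcription activator, had a peak of 5370 bp at chr4:151143347-151148716 with 29.8 and 30.3% against 89.4 and 81.9%. There the H3K9me3 peak lay inside the H3K4me1 peak, and the H3K9me3 level was 94.5% in the shared part and 55.2% outside. Asah1, the gene of acid ceramidase, had 21.1 and 22% against 69.2 and 80% at chr8:41380924-41382493. That the runs of the marks do not overlap in these 10 regions was required in choosing them.

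**Figure D5:**
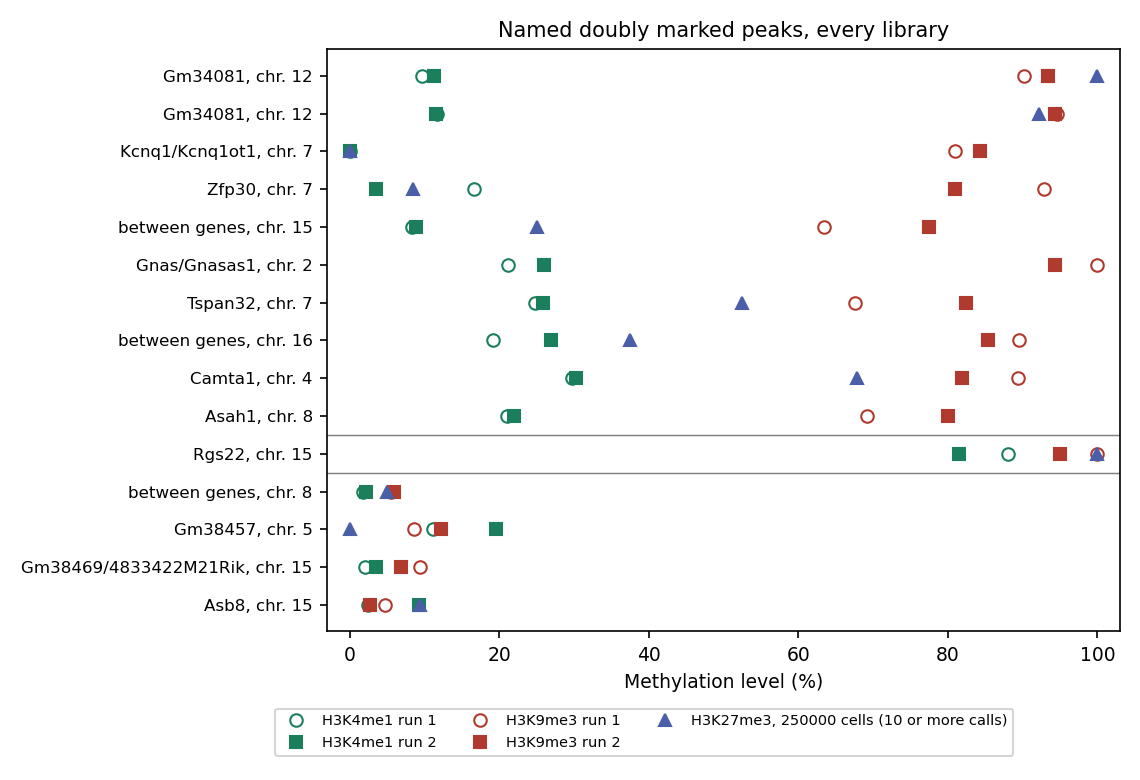
Methylation level (x axis, percent) in every library for named doubly marked peaks (y axis): above the first grey line the 10 with the largest difference at shared CpGs, between the lines the peak high in both libraries, and below them 4 peaks low in both. Open symbols are run 1 and filled symbols run 2, and in the upper 10, chosen for runs that do not overlap, the H3K9me3 runs span 63.5 to 100% and the H3K4me1 runs 0 to 30.3%.

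A second set of regions lay under 20% in all 4 runs, 116 of the 750. By the mean of runs, both libraries were under 20% in 20.7% of the 750 and in 32.0% of the 1071 other H3K4me1 peaks. Low levels in both were thus less frequent in doubly marked peaks. The deepest lay between genes at chr8:36546997-36551524, with 1.81 and 2.16% on H3K4me1 fragments and 5.49 and 5.86% on H3K9me3 fragments, the last from 222 calls. Its H3K9me3 flank read 72.1% in the H3K9me3 library. A peak inside Gm38469 and the noncoding RNA gene 4833422M21Rik at chr15:96244292-96246234 had 2 and 3.55% against 9.41 and 6.86%, with 90.3% in the flank (640 calls). At Asb8 the peak at chr15:98144344-98146002 had 2.38 and 9.29% against 4.65 and 2.74%, with 61.5% in the flank (78 calls). In these regions the H3K9me3 library itself went from nearly unmethylated to methylated between the H3K4me1 peak and its flank.

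The peak at Gm38457 and the promoter of Klf3, a Kruppel-like repressor gene, at chr5:64800184-64803398 was divided. It had 11.2 and 19.6% on H3K4me1 fragments and 8.54 and 12.1% on H3K9me3 fragments as a whole. Its shared part of 602 bp had 58.0 and 68.2% in run 2, and the remainder 6.91 and 3.97%. The H3K9me3 calls in the remainder, 151 of 173, set the low level of the whole. At the other extreme, the only peak over 80% in all 4 runs lay inside Rgs22, a gene of the G protein signalling regulator family, at chr15:36138144-36138644, with 88 and 81.5% against 100 and 95% (adjusted p = 0.564 by Fisher's exact test).

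The widest doubly marked peaks were H3K4me1 domains with a short H3K9me3 stretch. The domain at Bicral, a chromatin remodelling subunit gene, spanned 38380 bp at chr17:46786983-46825362 with 1001 bp under H3K9me3. It had 21.8% in both runs on H3K4me1 fragments and 69.6 and 58.6% on H3K9me3 fragments, the latter from 23 and 70 calls. At Mapt, the tau gene, a domain of 28359 bp had 31.8 and 31.5% against 43.1 and 48.1%, and at Pakap, an anchoring protein gene, a domain of 22912 bp had 25.8 and 25.5% against 39.6 and 49.6%. The H3K9me3 calls were few for the length of these domains. At CpGs called in both run 2 libraries the levels lay closer, at 37.0 and 57.4% at Bicral. There Mapt had 33.2 and 47.6% and Pakap 33.8 and 49.6%.

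The most CpG-dense peaks of at least 1000 bp did not separate in this way. A peak between genes at chr13:65258184-65259891 with 54.4 CpGs per kb had 18.7 and 25.3% against 26.3 and 36.4%. Arhgap27 had a peak with 24.5 and 25.9% against 20% of 20 calls and 10% of 10 calls, and 36.3% in the 250000-cell H3K27me3 library. Their runs were close or overlapped between marks, as did those of Asb8, the third of the set.

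Support for the regions varied between the deposited lists. Of the 1453 H3K4me1 peaks, 1292 overlapped a peak called in run 1 of H3K4me1, 1255 one of run 2 and 1189 one of the control without bisulfite. These were 88.9, 86.4 and 81.8% of them, beside 84.4, 77.8 and 80.1% of other H3K4me1 peaks. For H3K9me3 the numbers were 966, 1394 and 683, with no such share counted over other H3K9me3 peaks. Both marks were found in the controls at 565 regions (38.9%), and in all 6 lists at 428 (29.5%). The controls alone gave 552 doubly marked peaks, of which 353 had enough calls, with a median difference of 11.9 points. A control H3K9me3 peak was thus absent at most of the regions, while an H3K4me1 one was present at most, as at most other H3K4me1 peaks.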

How the data were processed

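DNA methylation was measured by CUT&Tag-BS in 8 bisulfite libraries of E14 cells, with 3 controls without bisulfite. Counts of methylated and of all calls per CpG were used as deposited, for 21908008 CpGs, as raw whole numbers per the file headers. Peak lists give positions only. The submitters' processing notes name mm10, cutadapt 1.12, Bismark 0.23.0, Bowtie2 2.3.0, HOMER 4.10.3 and bedtools 2.29.2, with no role or order. Treatment of duplicates is not given in the sources used here. All 395568 CG dinucleotides of the GRCm38.p6 promoter windows lay at a CpG line of the table. There were 0 unused sample columns.

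Total calls in runs 1 and 2 were 4917718 and 9690770 for H3K4me1 and 2012835 and 6355757 for H3K9me3, and from 378056 to 37177077 in the H3K27me3 libraries. Levels are methylated over all calls, summed over the CpGs of a region (Python 3.11.15, numpy 2.4.6, scipy 1.17.1, pandas 2.3.3). Intervals are Wilson 95% intervals of counting error, and calls on a fragment are not independent. Regions needed 10 calls per run. The Fisher's exact tests were adjusted over all H3K4me1 peaks tested and were tested on simulated data. Alternatives covered call minimums, runs, overlap, weights and peak lists.

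Regions named were the 10 with the largest difference at shared CpGs (20 calls of each mark there, both H3K9me3 runs above both H3K4me1 runs), the deepest ones high or low in all runs (up to 4 each), those at listed imprinted, germline or pluripotency genes, the 3 widest and the 3 most CpG-dense of at least 1000 bp. The Zfp genes named, the printed windows and the profiles at H3K4me1 edges were chosen after their values were seen. The regions and gene lists were chosen with earlier results of these data known.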

Additional observations from a re-analysis of the deposited data

How the results depend on the processing

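Of 88 values under other settings, 42 stayed close to the reported value and 46 moved. A reversal could be recorded only for the median differences, where 0 were found, since counts and pooled levels have no sign. The values that stayed close include those of the block by run below, which could not change. The median difference of 10.8 points ranged from 9.57 to 11.0 when runs were left out, and was 13.9 with at least 20 calls per run. The count of peaks with H3K9me3 at least 20 points higher was 208 of 750, and from 220 of 806 to 278 of 1027 without a single run of a mark. With run 1 of both marks alone it was 235 of 752, and with run 2 alone 309 of 1181. It was 128 of 370 with at least 20 calls per run and 102 of 353 with the control peaks. The number of peaks tested thus changed along with the count. The opposite count was 3 of 750, and from 7 of 750 to 16 of 1027 without a single run of a mark. With run 1 of both marks alone it was 13 of 752, and with run 2 alone 21 of 1181. It was 26 of 1070 with at least 5 calls per run and 1 of 370 with 20. With the mean of single CpG levels it was 12 of 750, and with the control peaks 1 of 353. By Fisher's exact test, 249 of 1181 peaks with H3K9me3 higher became 109 of 752 in run 1 alone (95 of them also called in run 2). The 5 peaks with H3K4me1 higher became 1 in run 1 alone, 10 with summed runs, 10 with at least 20 calls, 3 with 50% overlap and 2 at the same CpGs. The difference at the same CpGs of 9.34 points was 10.6 with equal weights and 10.4 in run 1.

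Run numbers mark a shared read length. Deviations of same-numbered runs of the marks correlated at r = 0.0439 over 750 peaks. With the run as a replicate block (Cochran-Mantel-Haenszel test) 305 peaks had H3K9me3 higher and 9 H3K4me1 higher. For the median of 10.8 points and the counts of 208 and 3, a block by run is no check. The mean of the differences within runs equals the difference of the means, so these values could not change.

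Pooled levels, as the mean of single CpG levels, became 29.8 and 30.3% on H3K4me1 fragments (runs 1 and 2), 41.5 and 42.8% on H3K9me3 fragments, and 23.6, 28.8 and 30.5% in the H3K27me3 libraries from 20000, 100000 and 250000 cells. From CpGs with at least 5 calls they were 20.1, 22.1, 33.0 and 35.8% in the same runs, and 0 (6 calls), 8.98, 19.5 and 21.0% for H3K27me3 from 4000 cells upward. With 50% overlap they were 25.1, 24.98, 40.4 and 40.6%, and 24.9, 29.3 and 30.4% from 20000 cells upward. The number of doubly marked peaks, 1453, was 552 with the control peaks and 857 with those of run 1. Depth limits the H3K9me3 side: 703 of the 1453 lacked 10 calls in some run.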
